A study of Mus musculus with 4 samples.

Results

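The nuclear genes for subunits of oxidative phosphorylation were followed through single cells of the mouse embryonic neocortex. They were chosen by symbol, as the Nduf, Sdh, Uqcr, Cox4 to Cox8 and Atp5 genes of the deposited gene table without the 1 name that holds -ps, which gave 84 of 32285 genes. By symbol they were counted as 37 genes of complex I, 4 of complex II, 8 of complex III, 18 of complex IV and 17 of complex V. Ndufa4 and its paralog Ndufa4l2 are thus in all counts and shares of complex I, although Ndufa4 is associated with complex IV. All 84 matched the GENCODE M21 annotation of GRCm38 by gene ID as protein-coding genes, on 19 chromosomes.

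Oxidative phosphorylation takes place in the inner mitochondrial membrane. Complex I (NADH dehydrogenase) and complex II (succinate dehydrogenase) pass electrons to ubiquinone, complex III (the cytochrome bc1 complex) passes them on to cytochrome c, complex IV (cytochrome c oxidase) reduces oxygen, and complex V (ATP synthase) makes ATP from the proton gradient. Most subunits are encoded in the nucleus and a few in mitochondrial DNA, and complex II is encoded by nuclear genes alone. Several subunits have a second gene whose protein is known from particular tissues or from low oxygen: Ndufa4l2 beside Ndufa4, Cox4i2 beside Cox4i1, Cox6b2 beside Cox6b1, and Cox7a1 beside Cox7a2.

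The libraries came from rostral neocortex of embryos at E15.5. The i4F-Nes embryos had the genotype Nestin-Cre;i4F;ROSA-STOP-rtTA, in which Nestin-Cre, active in neural progenitors, allows the transactivator rtTA to be made and doxycycline then switches on the i4F cassette of the Yamanaka factors. The CTR embryos were i4F;ROSA-STOP-rtTA, with the cassette and the transactivator but no Cre. Doxycycline was in the drinking water of all dams between E10.5 and E14.5 (0.2 mg/ml, 4 days in all), and the CTR embryos were therefore exposed to the drug as well. There were 2 libraries per group, made with the droplet-based 10x Genomics Chromium 3′ v3.1 kit. The number of embryos per library is not given in the sources used here, and p-values measure the spread between these libraries, which may be technical.

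The filters kept 7498 and 6407 cells of the i4F-Nes libraries, against 6046 and 6690 of the CTR libraries, with medians of 15162 and 11320 UMIs per i4F-Nes cell and 15132.5 and 11620.5 UMIs per CTR cell. Replicate 1 of each group was thus the deeper one. Any pair of libraries shared 20 to 31 barcodes. The library CTR replicate 1 stood apart in Xist, the RNA of the inactive X chromosome, at 0.0103 CPM (the UMI count of a gene scaled to a common library total) against 848 to 1158 CPM in the other libraries. The sex of the embryos may therefore differ between the libraries, also within the CTR group. Its part in the comparisons was not tested, and Ndufa1, Ndufb11 and Cox7b lie on the X chromosome.

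Cell types were gated on marker genes that are no oxidative phosphorylation genes: a cell had to hold UMIs of a set number of markers, for example 6 of 10 for radial glia, the stem cells of the cortex, and 6 of 9 for excitatory neurons. Of 26641 cells, 19119 fell into 1 gate, 121 into several and 7401 into none. Cells without a gate were shallower in replicate 2 (medians 4519.5 UMIs in i4F-Nes and 8823 UMIs in CTR), so the gates favour deep cells. The labels call the cell type cortical neurons, and the tissue held other types too. The radial glia gate held 753 and 413 cells of i4F-Nes against 582 and 370 CTR cells, and the excitatory neuron gate held 2832 and 1802 cells of i4F-Nes against 2175 and 2573 CTR cells. Sox2, a transcription factor of progenitors, reached 455 CPM in the radial glia gate and 219 CPM in the interneuron gate. Neurod6, a transcription factor of cortical excitatory neurons, had 1005 CPM in the neuron gate and 1023 CPM in the newborn neuron gate. Rgs5, a pericyte gene, had 3078 CPM in the mural gate, and Cldn5, a tight junction gene, 4166 CPM in the endothelial gate. Cells were gated on markers, so such levels do not test the gates. A pair of gates was taken from earlier clusters of these data and held cells of i4F-Nes libraries alone: 402 and 371 cells led by the cytokine-like gene Cytl1, and 195 and 199 cells led by the keratin gene Krt8, with 0 CTR cells in either.

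Promoters of 67 of the 84 genes were found in RefSeq's table for GRCm38.p6, as 72 windows from 250 bases before to 50 bases after a start site. The palindromic consensus motif of NRF1, a regulator of respiratory genes, was present on either strand in 18 of the 72 windows (25%) and in 4.60% of 32851 windows of all genes. The ETS motif CCGGAAG, the core bound by GABP, was present in 17 of 72 (23.6%) against 8.86% of all windows. The core of the hypoxia response element, ACGTG, was found in 17 of 72 (23.6%) against 19.6%. The CCAAT box was present in 43.1% of the 72 windows against 37.4%, and TATAAA in 12.5% against 13.6%. A match describes the letters of a window and does not show a bound site.

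Below are 5 of these windows, 5′ to 3′ on the minus strand of GRCm38.p6, shown because the levels of these genes parted between cell types while those of a partner did not or went the other way, or, for Sdhd, because 3 of the 4 genes of its complex were lower in neurons. They are Cox6b2 (chr7:4753045-4753344) beside Cox6b1 (chr7:30626065-30626364), Atp5g1 (chr11:96075582-96075881) beside Atp5g2 (chr15:102670998-102671297), and Sdhd (chr9:50603800-50604099). Capitals mark matches of ACGTG, of the NRF1 motif or of CCGGAAG on either strand. The window of Cox6b2 held no match, that of Cox6b1 held an ETS match, that of Atp5g1 held ACGTG matches, 1 pair of which overlaps as a palindrome, that of Atp5g2 held an ACGTG and an NRF1 match, and that of Sdhd held an NRF1 and an ETS match. The letters do not show which factor acts there.
Cox6b2: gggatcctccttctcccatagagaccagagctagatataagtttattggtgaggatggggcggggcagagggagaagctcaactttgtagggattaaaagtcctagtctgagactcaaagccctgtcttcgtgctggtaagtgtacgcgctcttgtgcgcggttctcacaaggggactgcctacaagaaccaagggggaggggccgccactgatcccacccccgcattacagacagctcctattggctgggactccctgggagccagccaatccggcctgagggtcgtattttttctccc
Cox6b1: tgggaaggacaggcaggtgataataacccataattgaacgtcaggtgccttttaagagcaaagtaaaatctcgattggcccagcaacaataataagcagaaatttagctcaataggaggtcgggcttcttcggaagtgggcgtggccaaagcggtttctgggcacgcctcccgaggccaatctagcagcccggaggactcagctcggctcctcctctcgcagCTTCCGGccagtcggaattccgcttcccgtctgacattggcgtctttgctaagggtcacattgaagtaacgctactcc
Atp5g1: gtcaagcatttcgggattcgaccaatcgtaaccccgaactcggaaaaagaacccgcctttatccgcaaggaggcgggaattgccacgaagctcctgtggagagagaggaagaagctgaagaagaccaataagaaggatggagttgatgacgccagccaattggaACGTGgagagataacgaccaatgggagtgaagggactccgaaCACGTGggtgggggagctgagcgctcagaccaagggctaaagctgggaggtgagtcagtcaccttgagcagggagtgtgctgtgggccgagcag
Atp5g2: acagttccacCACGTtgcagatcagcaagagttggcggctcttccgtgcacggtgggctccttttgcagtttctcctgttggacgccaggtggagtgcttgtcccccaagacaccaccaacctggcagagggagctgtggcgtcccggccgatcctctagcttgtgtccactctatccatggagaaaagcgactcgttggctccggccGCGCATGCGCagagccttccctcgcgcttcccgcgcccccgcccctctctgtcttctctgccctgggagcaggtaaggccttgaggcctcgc
Sdhd: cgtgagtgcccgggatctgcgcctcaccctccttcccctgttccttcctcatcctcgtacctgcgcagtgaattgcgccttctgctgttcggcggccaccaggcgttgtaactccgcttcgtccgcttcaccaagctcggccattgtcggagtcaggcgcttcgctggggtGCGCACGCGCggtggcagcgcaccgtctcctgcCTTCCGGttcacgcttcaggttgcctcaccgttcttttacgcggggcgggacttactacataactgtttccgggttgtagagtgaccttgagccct

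Over all kept cells, 67 of the 84 genes had a mean of 100 to 1000 CPM, 17 were below 100 CPM and 7 of these below 10 CPM. The core subunits were measured in every library: Ndufs1, an iron-sulfur subunit of complex I, at 63.1 and 52.2 CPM in i4F-Nes against 62.8 and 52.8 CPM in CTR, and Atp5b, the catalytic beta subunit of ATP synthase, at 659.6 and 536 CPM in i4F-Nes against 650.1 and 573 CPM in CTR. The core subunit Ndufv1 stood at 110.1 and 94.3 CPM in i4F-Nes against 116 and 97.9 CPM in CTR. For complex III, Uqcrc1 had 123 and 83.2 CPM in i4F-Nes against 129 and 83.9 CPM in CTR, and Uqcrfs1 177 and 175 CPM against 188 and 174 CPM. Replicate 1 was the higher library of each group for these genes. Other members went the other way or with neither: Cox7a2 had 348 and 452 CPM in i4F-Nes against 399.6 and 464 CPM in CTR, Cox7b 209 and 292 CPM against 211 and 281 CPM, and Cox6a1 187 and 205 CPM against 191 and 190.1 CPM. Levels of different genes are not compared here, since 3′ tags are not counted with equal yield. A few isoforms known from other tissues were near 0. Cox6a2, the heart and muscle form of a complex IV subunit, had 3 and 1 UMIs in i4F-Nes and 1 and 6 UMIs in CTR, Cox7b2 had 8 to 11 UMIs per library, Cox8b had 1 UMI in all, and Cox8c, known from testis, at most 3 UMIs in a library. These 4 genes did not pass the filter on low counts in any comparison, and the counts below are of those that did.

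Ndufa4l2 (GRCm38 chr10:127514967-127517154, plus strand) is a paralog of the cytochrome c oxidase-associated subunit Ndufa4 and a known target of hypoxia-inducible factors. Its UMIs lay in the Krt8-led cells and in mural cells, the pericytes and smooth muscle cells of vessels. In the Krt8-led gate it stood at 355 and 368 CPM. In the mural gate it stood at 1020.5 CPM in i4F-Nes replicate 2 against 718 and 996 CPM in CTR. The gate held 2 cells of i4F-Nes replicate 1, with 2 UMIs. The Cytl1-led gate had 12.4 and 7.47 CPM, and in radial glia it stood at 2.25 and 0.967 CPM in i4F-Nes against 0.0918 and 0 CPM in CTR. No UMI was counted in the interneuron, Cajal-Retzius, endothelial and microglia gates. In i4F-Nes replicate 1 the mural value of 41.2 CPM, from those 2 cells, lay below the Krt8-led gate. Without that value the order was mural, Krt8-led and Cytl1-led cells, and their ranges did not overlap. Intermediate progenitors had 5.53 and 7.45 CPM in i4F-Nes, against 1.31 and 0.535 CPM in CTR. Their i4F-Nes replicate 2 was thus level with that of the Cytl1-led gate (7.47 CPM). Radial glia, newborn neurons and excitatory neurons lay below the Cytl1-led gate in every library.

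After thinning each cell to 3800 UMIs, 46.1% (exact binomial 95% interval 38.9 to 53.4) and 47.2% (39.9 to 54.4) of Krt8-led cells held an Ndufa4l2 UMI, where 74.4% and 64.8% did before thinning. The thinned share was 95% of mural cells in i4F-Nes replicate 2 and 100% and 83.3% in CTR, and 0.355% and 0.291% of excitatory neurons in i4F-Nes against 0.139% and 0.0792% in CTR. Interneurons, with 0 of 110 and 0 of 52 thinned cells in i4F-Nes and 0 of 137 and 0 of 275 in CTR, allow, at 3 counts of the total, a share of cells with a UMI of up to 5.77% in the smallest library and 1.09% in the largest (exact binomial upper limits 6.85% and 1.33%). Unthinned medians were 22592 and 17299 UMIs in Krt8-led cells and 7472 and 6934 UMIs in i4F-Nes interneurons. Intervals and floors cover counting error alone.

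Markers of mural cells were nearly absent where Ndufa4l2 was high in the Krt8-led gate. The 7 listed mural markers summed to 0.443 and 0.296 CPM there, with 5 and 6 of the 7 at 0 UMIs, against 13123 CPM in the mural gate of i4F-Nes replicate 2 and 8649 and 8323 CPM in that of CTR. Cells that passed both gates were put in neither, so the gating itself keeps these sums low. Excitatory neurons of i4F-Nes, with little Ndufa4l2, had low sums too (0.874 and 1.80 CPM). In the mural gate of i4F-Nes replicate 1 they summed to 330 CPM, with 4 of the 7 at 0 UMIs. The type of its few cells is therefore uncertain. Of the 4235 Ndufa4l2 UMIs in kept i4F-Nes cells, 67.3% were in Krt8-led cells, 6.54% in Cytl1-led cells and 4.58% in mural cells. Of 439 UMIs in CTR cells, 69.0% were in mural cells.

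Cox6b2 (chr7:4751792-4753094, minus strand), known as the testis form of a complex IV subunit, was highest in the Cytl1-led gate at 80.4 and 56.0 CPM. Radial glia had 6.404 and 10.47 CPM in i4F-Nes and 2.85 and 4.15 CPM in CTR. Krt8-led cells had 8.63 and 2.36 CPM, and excitatory neurons 0.576 and 0.360 CPM in i4F-Nes against 0.438 and 0.209 CPM in CTR. The Cytl1-led libraries lay above every library of these other gates, while the ranges of radial glia and Krt8-led cells overlapped. After thinning, 24.9% (20.7 to 29.4) and 18.9% (15.01 to 23.2) of Cytl1-led cells held a UMI, unthinned 82.8% and 70.1%, at medians of 35806.5 and 27058 UMIs. In excitatory neurons, at medians of 15939 and 13425.5 UMIs in i4F-Nes, the thinned share was 0.248% and 0.233%. Of the 2447 Cox6b2 UMIs of i4F-Nes cells 76.8% were in Cytl1-led cells, and of the 231 of CTR cells 22.9% were in radial glia and 19.5% in intermediate progenitors, the dividing daughters of radial glia.

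Cox4i2 (chr2:152754173-152765037, plus strand), the form of the regulatory subunit 4 known from lung and from low oxygen, was highest in mural cells in both groups. It stood at 319 CPM in mural cells of i4F-Nes replicate 2 and at 233 and 203 CPM in those of CTR. The Cytl1-led gate had 13.2 and 12.7 CPM, and radial glia 6.99 and 6.12 CPM in i4F-Nes and 3.95 and 5.29 CPM in CTR. Excitatory neurons had at most 0.137 CPM in a library, and Krt8-led cells, where Ndufa4l2 was high, had 1 and 0 UMIs. The isoforms high in mural cells were therefore not all present in Krt8-led cells. Cox7a1 (chr7:30184144-30186078, plus strand), the heart and muscle form beside Cox7a2, stayed below 10 CPM in Krt8-led cells (5.76 and 3.25 CPM), excitatory neurons (1.71 and 1.28 CPM in i4F-Nes, 1.86 and 1.54 CPM in CTR) and radial glia (1.248 and 1.13 CPM in i4F-Nes, 1.28 and 0.378 CPM in CTR).

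**Figure D1:**
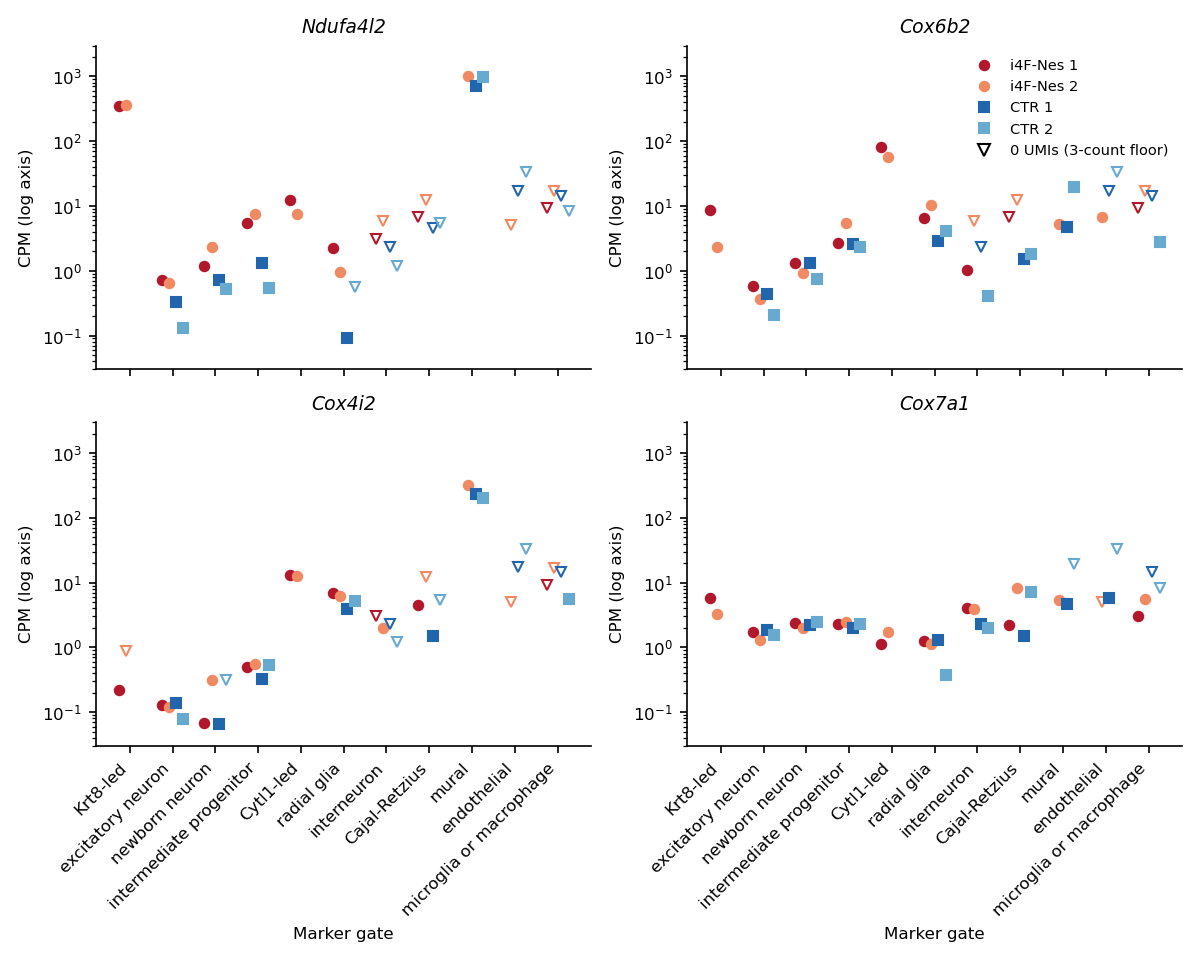
Levels of Ndufa4l2, Cox6b2, Cox4i2 and Cox7a1 by gate and library (CPM, log axis). Each point is 1 library of a gate with at least 5 cells, circles for i4F-Nes and squares for CTR, and open triangles stand for 0 UMIs, drawn at the level of 3 counts. Ndufa4l2 was high in mural and Krt8-led cells, Cox6b2 in Cytl1-led cells and Cox4i2 in mural cells.

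The summed share of UMIs from the 84 genes also differed between gates. Cajal-Retzius cells, early neurons of the marginal zone, had the largest share, 2.94% and 3.59% in i4F-Nes and 3.01% and 2.999% in CTR, from 10 to 21 cells a library. Interneurons had the smallest among the gates with cells in every library, 1.41% and 1.63% in i4F-Nes and 1.36% and 1.84% in CTR. Between them lay radial glia (2.08% and 2.42% in i4F-Nes, 2.40% and 2.45% in CTR), intermediate progenitors (1.91% and 2.37% in i4F-Nes, 2.10% and 2.32% in CTR), newborn neurons (1.68% and 1.99% in i4F-Nes, 1.84% and 1.95% in CTR) and excitatory neurons (1.62% and 1.90% in i4F-Nes, 1.77% and 1.93% in CTR). The Cytl1-led gate had 2.30% and 2.60% and the Krt8-led gate 1.82% and 2.20%. The ranges of neighbours in this order overlapped, apart from Cajal-Retzius cells, which lay above the other gates with at least 5 cells in a library.

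The excitatory neuron share was 1.81% ± 0.140 against 2.34% ± 0.172 in radial glia (SD, n = 4 libraries each), a difference of -0.532 percentage points, and it was lower in 4 of 4 libraries (exact two-sided sign-flip test p = 0.125, the smallest p that 4 libraries allow). Each complex had a smaller share in neurons in 4 of 4 libraries, by -0.183 points for complex I, -0.0190 for II, -0.0521 for III, -0.0865 for IV and -0.191 for V (exact p = 0.125 each). The mitochondrially encoded subunits went the other way, with 2.77% of UMIs in neurons against 1.86% in radial glia, a difference of 0.910 points that was positive in 4 of 4 libraries (exact p = 0.125). Within excitatory neurons the mitochondrial share was 3.23% and 2.37% in i4F-Nes and 3.13% and 2.36% in CTR, higher in replicate 1 of each group. All these shares are scaled by library totals. On that scale the median log2 fold change of neurons over radial glia was -0.16 over all genes tested. For the oxidative phosphorylation genes tested it was -0.32, from -0.22 in complex IV to -0.82 in complex II.

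**Figure D2:**
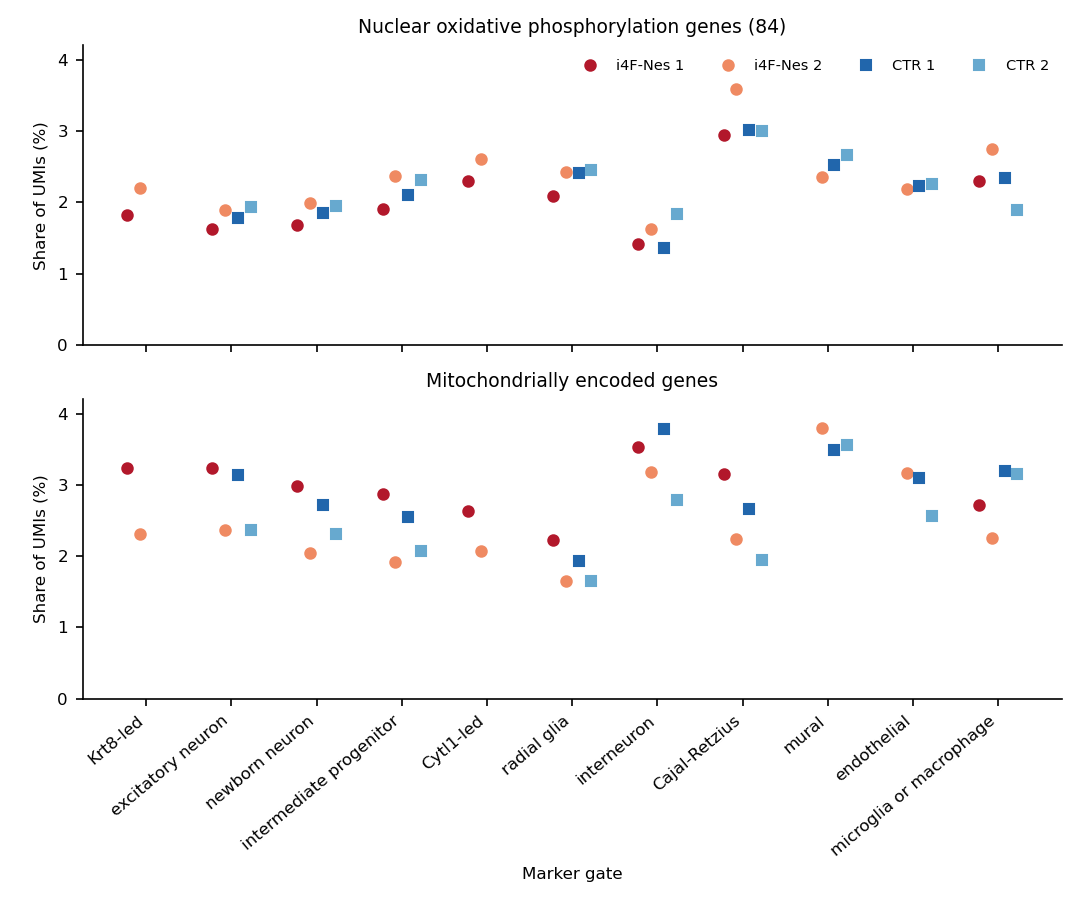
Share of a library's UMIs in the 84 nuclear genes and in the 13 mitochondrially encoded subunits by gate (percent). Circles are i4F-Nes libraries and squares CTR libraries. The nuclear share was 1.62% to 1.93% in excitatory neurons and 2.08% to 2.45% in radial glia, and the mitochondrial share was 2.36% to 3.23% in excitatory neurons and 1.65% to 2.22% in radial glia.

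Excitatory neurons were set against radial glia of the same 4 libraries, to see how single subunits differ between a neuron and the stem cell it descends from. Most genes differ between these gates: 79.4% of 14824 tested genes passed at an adjusted p of 0.05 in edgeR's quasi-likelihood test (41.4% higher in neurons, 38% lower). Of the 80 oxidative phosphorylation genes tested, 47 passed, 12 higher and 35 lower, each in the same direction in 4 of 4 libraries. The median log2 fold change of the 80 was -0.10, against 0.06 over all genes tested. Of these 47, Cox4i2 and Cox6b2 passed the filter on low counts through radial glia alone and Cox7a1 through neurons alone. Passing the filter through a single gate favours a difference in that direction. Of the 76 genes that passed it in both gates 11 were higher and 33 lower. Levels in this and the following comparisons are TMM-scaled CPM. With library totals in place of TMM, chosen after seeing the data, all folds shifted down by about the same amount (median of all genes -0.16), and the split was 3 higher and 63 lower, against 33.9% and 45.9% of all genes. In either direction 66 of the 80 passed there, close to the 79.9% of all genes. The called genes Ndufs5, Ndufv3, Uqcrc2 and Cox6a1 turned in sign there. The libraries of the gates did not overlap for 35 of the 80 genes with neurons below and for 0 with neurons above, against 39.1% and 28.6% of all genes. Gene counts with near-identical copies elsewhere in the genome, which many of these genes have as pseudogenes, are uncertain.

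Subunits of complex I were split, with 6 higher and 17 lower of 37 (2 and 27 without TMM). Ndufa2, an accessory subunit, stood at 138, 184, 162 and 197 CPM in neurons against 242, 331, 288 and 330 CPM in radial glia of i4F-Nes replicates 1 and 2 and CTR replicates 1 and 2. Neurons were below radial glia in every library without overlap (log2 fold change -0.81 ± 0.0605, SE, adjusted p = 6.6e-07). The accessory subunits Ndufa12 (-0.75), Ndufc2 (-0.70) and Ndufb11 (-0.58) were lower too. Ndufb2, an accessory subunit of the membrane arm, was higher, with 112, 158, 126 and 158 CPM in neurons against 79.5, 119, 96.1 and 107 CPM in radial glia (0.46 ± 0.0606, adjusted p = 4.89e-05). Each library was higher in neurons, though the ranges over libraries overlapped. Ndufb9 differed by 0.37, Ndufa8 by 0.31 and Ndufb10 by 0.25, and the last pair no longer passed without TMM (0.09 and 0.03). Ndufa4, the ubiquitous partner of Ndufa4l2, did not pass (-0.15, adjusted p = 0.0515), although it did in DESeq2 and without TMM (adjusted p over the alternatives 0.000139 to 0.426).

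Complex II, which also works in the tricarboxylic acid cycle, had 3 of 4 subunits lower (4 of 4 without TMM). Sdhd, a membrane anchor, stood at 57.9, 58.2, 61.8 and 61.0 CPM in neurons against 99.2, 101, 103 and 104 CPM in radial glia (-0.77 ± 0.0565, adjusted p = 5.67e-07). The libraries of a gate lay within a few CPM of each other and the gates did not overlap. Sdha, the flavoprotein, stood at 89.5, 70.1, 93.0 and 80.2 CPM in neurons against 147, 112, 133 and 122 CPM in radial glia (-0.63), and the other anchor Sdhc differed by -0.59. The iron-sulfur subunit Sdhb did not pass (-0.14, adjusted p = 0.0791), but passed in DESeq2 and without TMM (adjusted p over the alternatives 0.000367 to 0.584).

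In complex III 1 subunit was higher and 4 were lower of 8 (0 and 7 without TMM). Uqcr10, a small accessory subunit, had 115, 168, 139 and 172 CPM in neurons against 199, 282, 264 and 283 CPM in radial glia (-0.80). In complex IV 3 were higher and 4 lower of the 14 tested (0 and 10 without TMM). Cox4i2 stood at 0.133, 0.131, 0.145 and 0.0888 CPM in neurons, from 3 to 6 UMIs a library, against 6.497, 5.75, 3.61 and 4.93 CPM in radial glia (log2 fold change -5.31). Cox6b2 had 0.601, 0.392, 0.464 and 0.237 CPM in neurons against 5.96, 9.83, 2.60 and 3.87 CPM in radial glia (-3.54). Neurons were at or near 0 for both, with no overlap between the gates, and no p is given since both entered the test through radial glia alone. Cox8a, the ubiquitous form of subunit 8, was lower (-0.65) and Cox5a higher (0.25, and 0.03 without TMM, where it did not pass). Cox7a1, which entered the test through neurons alone, had 2 to 15 UMIs a library in radial glia.

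Complex V had 2 genes higher and 7 lower of 17 (1 and 15 without TMM). The c subunit of its rotor is encoded by Atp5g1, Atp5g2 and Atp5g3, whose mature proteins are the same, and these genes parted. Atp5g2 (chr15:102662864-102672352, minus strand) stood at 383, 402, 458 and 449.6 CPM in neurons against 806, 867, 803 and 842 CPM in radial glia (-0.97 ± 0.0750, adjusted p = 8.18e-07), without overlap. Atp5g1 (chr11:96068852-96075670, minus strand) stood at 300.0, 389, 306 and 407 CPM in neurons against 244, 308, 288 and 333 CPM in radial glia (0.25 ± 0.0687, adjusted p = 0.00665). The ranges of Atp5g1 overlapped, and without TMM it did not pass (0.03, adjusted p = 0.620, range over the alternatives 1.81e-05 to 0.620). Atp5g3 did not pass (-0.12, adjusted p = 0.139), and Atp5md, a small subunit of the membrane part, was higher (0.48 ± 0.0710).

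Other genes of the pathway are given from lists. The mitochondrially encoded subunits passed as higher in neurons for 13 of 13 genes, from 0.44 for mt-Nd1 to 0.92 for mt-Cytb (12 of 13 without TMM). Of 13 regulators of mitochondrial gene expression 2 were higher and 9 lower: the coactivator Ppargc1a differed by -2.76, the mitochondrial transcription factor Tfam by -0.79, Gabpa, a subunit of GABP, by -0.69, Nrf1 by -0.60 and the nuclear receptor Esrra by 1.41. Of 45 assembly factors 18 were higher and 17 lower (10 and 23 without TMM). In the tricarboxylic acid cycle 2 of 13 enzymes were higher and 4 lower (2 and 9 without TMM), with the lower ones including the succinate-CoA ligase subunit Suclg2 (-5.98). Of 20 glycolysis genes 5 were higher, among them the phosphofructokinase Pfkp (3.50), and 13 lower, among them the aldolase Aldoc (-8.17). Slc25a5, the ADP/ATP carrier of dividing cells, differed by -1.77 and its paralog Slc25a4 by 0.64. The lists were chosen with earlier results of these data known, and no test was made of a list as a whole.

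**Figure D3:**
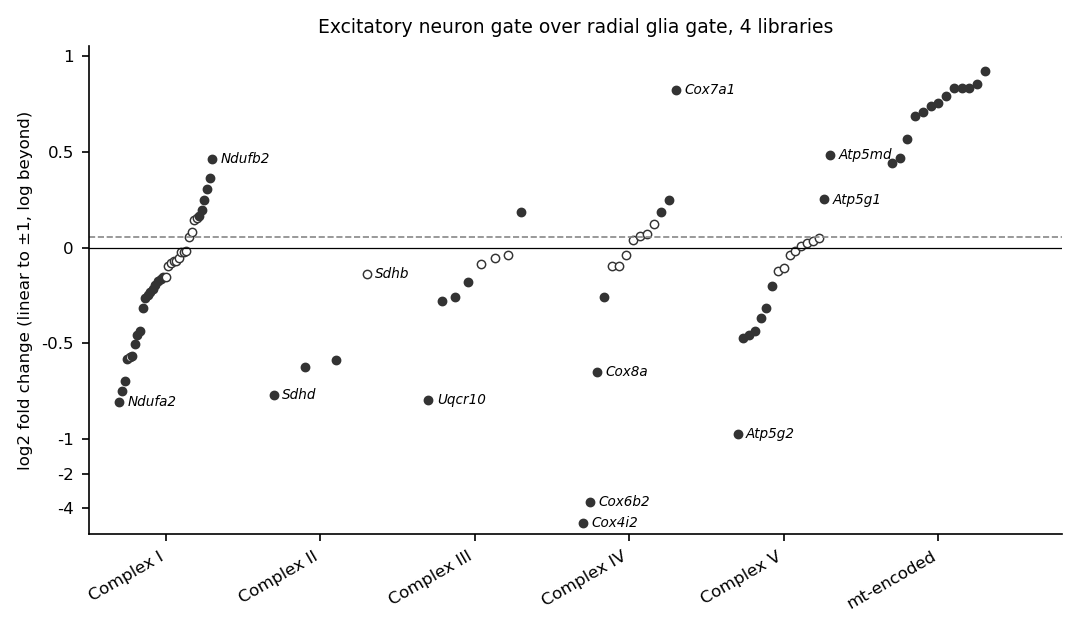
Log2 fold change of excitatory neurons over radial glia for each oxidative phosphorylation gene by complex, with the mitochondrially encoded subunits in a sixth column (linear to ±1 and logarithmic beyond). Filled points passed at an adjusted p of 0.05, open points did not, and the dashed line is the median of all genes tested. Cox4i2 (-5.31) and Cox6b2 (-3.54) lie far below the rest, and the mitochondrially encoded genes lie above 0.

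Mural cells were compared with endothelial cells, the other cell type of the vessel wall, in the 3 libraries with at least 5 cells of each, i4F-Nes replicate 2 and both CTR libraries. The limit was lowered from 20 cells after the cells were counted, since the gates held 22, 13 and 17 mural and 34, 13 and 8 endothelial cells. In edgeR's test 17.9% of 3879 genes passed (9.13% higher, 8.79% lower), and 4 of 78 oxidative phosphorylation genes, 3 higher and 1 lower. Ndufa4l2 and Cox4i2 entered the test through mural cells alone, which favours a difference in that direction. Of all 803 genes that entered so, 288 were called higher and 0 lower. Of the 70 genes that passed the filter in both gates 1 was higher and 1 lower. Ndufa4l2 had 192, 151 and 152 UMIs in mural cells of these libraries and 0 in endothelial cells, which made it at least 259-fold higher in mural cells against a floor of 3 counts over the endothelial group. Cox4i2 had 60, 49 and 31 UMIs against 0, at least 73.2-fold higher by the same floor. Both were thus found in every mural library and in none of the endothelial ones.

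The ubiquitous partners did not follow. Ndufa4 was lower, at 235, 437 and 519 CPM in mural cells against 760.2, 700.0 and 1055 CPM in endothelial cells (-1.12 ± 0.258, adjusted p = 0.00935), without overlap. Leaving out i4F-Nes replicate 2 ended that call (-0.83, adjusted p = 0.203, with a range over the alternatives 0.000138 to 0.203). Cox4i1 stood at 1176, 1215 and 1448 CPM in mural cells against 1007, 1064 and 1151 CPM in endothelial cells and did not pass (0.25, adjusted p = 0.401). Cox8a was higher, with 1176, 1152 and 1212 CPM in mural cells against 758, 693 and 699 CPM in endothelial cells (0.72 ± 0.182, adjusted p = 0.0167), a call lost in 4 alternatives (adjusted p 0.000600 to 0.172). Complexes II, III and V had 0 genes passing, and over all 78 genes 8 had an unadjusted p under 0.05, against 26.6% of all genes. In DESeq2 3 of the 78 passed, against 12.4% of all genes.

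The Cytl1-led cells were set against radial glia of the same i4F-Nes libraries, since no CTR cell was in the gate. Of 14521 genes 42.7% passed (23.1% higher, 19.6% lower), and of the 80 oxidative phosphorylation genes 32 passed, all 32 higher and in both libraries, with 0 lower. The median of the 80 was 0.22 against 0.02 over all genes. By complex, 14 of 37 genes of complex I, 2 of 4 of II, 5 of 8 of III, 5 of 14 of IV and 6 of 17 of V were higher. Without TMM the split was 20 higher and 1 lower, against 20.6% and 24.2% of all genes, with the median of all genes at -0.06. DESeq2 called 11 higher and 0 lower, against 12.1% and 10.2% of all genes. In both alternatives the share of the 80 genes called higher was thus close to that of all genes. The gates did not overlap for 25 of the 80 genes with Cytl1-led cells above and 4 with them below, against 29% and 35.7% of all genes. Cytl1-led cells were also deeper than radial glia (medians 35806.5 and 27058 against 15450 and 15137 UMIs), and the part of depth in these differences was not tested.

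In complex I, Ndufb8, a membrane arm subunit, stood at 273 and 328 CPM in Cytl1-led cells against 174 and 221 CPM in radial glia (0.61, adjusted p = 0.00215). Both Cytl1-led libraries lay above both radial glia libraries. Ndufa9 (0.56), Ndufb2 (0.51) and the NADH-binding core subunit Ndufv1 (0.36) were higher as well, while Ndufs4 did not pass (-0.23, adjusted p = 0.0661), nor did Ndufa4 (-0.05, adjusted p = 0.606). Ndufv1 did not pass in DESeq2 (adjusted p = 0.187, range over the alternatives 0.00130 to 0.187).

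In complex II, Sdhd (0.39, adjusted p = 0.0182) and Sdhc (0.35, adjusted p = 0.0415) were higher, and Sdha (0.12, adjusted p = 0.292) and Sdhb (0.21, adjusted p = 0.0925) did not pass. Sdhc and Sdhd were lost in DESeq2 (adjusted p = 0.302 and 0.153), and Sdhc also without TMM. In complex III the core proteins Uqcrc1 (0.45) and Uqcrc2 (0.48), the Rieske iron-sulfur protein Uqcrfs1 (0.46) and the small subunit Uqcrb (0.44) were higher. In complex V, Atp5a1, the alpha subunit, stood at 723 and 595 CPM in Cytl1-led cells against 497 and 414 CPM in radial glia (0.53, adjusted p = 0.00265), and Atp5g3 was higher by 0.47.

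The isoforms of complex IV, and Ndufa4l2, which its symbol puts with complex I, were higher too. Cox6b2 stood at 80.2 and 59.6 CPM in Cytl1-led cells against 6.09 and 10.4 CPM in radial glia (3.17 ± 0.308, adjusted p = 0.00246), while its partner Cox6b1 did not pass (0.22, adjusted p = 0.0802). Cox4i2 had 13.2 and 13.6 CPM against 6.64 and 6.10 CPM (1.06 ± 0.193, adjusted p = 0.00620), and Cox4i1 919 and 939 CPM against 752 and 714 CPM (0.34, adjusted p = 0.0142). Ndufa4l2 had 12.4 and 7.94 CPM against 2.13 and 0.963 CPM (2.67 ± 0.284, adjusted p = 0.000848). In Cox6b2, Cox4i2, Cox4i1 and Ndufa4l2 the gates did not overlap. Cox8a was higher by 0.33. Cox4i1, Cox4i2 and Cox8a were lost in DESeq2 (adjusted p = 0.0900, 0.0703 and 0.104), and their adjusted p over the alternatives started at 0.000335, 1.40e-05 and 0.000596.

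Among the other lists, 8 of 13 enzymes of the tricarboxylic acid cycle were higher in Cytl1-led cells and 0 lower (7 without TMM), such as the isocitrate dehydrogenase subunits Idh3a (1.09) and Idh3g (0.76) and the fumarase Fh1 (1.04). Of the mitochondrially encoded subunits 5 of 13 were higher and 0 lower, such as mt-Co1 (0.93), and without TMM 4 were higher and 3 lower. Of 20 glycolysis genes 5 were higher, such as the glucose transporter Slc2a3 (3.23), and 10 lower, such as Aldoc (-2.07). The regulators Ppargc1b (1.51) and Esrra (1.10) were higher, and Nrf1 was lower (-0.48).

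The Krt8-led cells were set against excitatory neurons of the same i4F-Nes libraries, whose tubulin Tubb3 (2171 CPM in the neuron gate) they share at 3297 CPM. Other markers differed, with Neurod6 at 178 CPM in Krt8-led cells against 1005 CPM in the neuron gate and Sox2 at 11.6 against 1.54 CPM. Tubb3 was also high in Cajal-Retzius cells (1950 CPM). Whether excitatory neurons are the type most like Krt8-led cells was not tested. Of 14562 genes 49.3% passed (24.5% higher, 24.8% lower), and of 79 oxidative phosphorylation genes 29, with 18 higher and 11 lower. Ndufa4l2 and Cox6b2 entered the test through Krt8-led cells alone, which favours a difference in that direction. Of the 77 genes that passed the filter in both gates 16 were higher and 11 lower. The median of the 79 was 0.05 against -0.03 over all genes. Without TMM the split was 28 higher and 3 lower, against 29.4% and 20.6% of all genes. DESeq2 called 9 higher and 3 lower, against 16.1% of all genes higher and 30.6% in either direction. The gates did not overlap for 33 of the 79 with Krt8-led cells above and 4 with them below, against 39.5% and 30.8% of all genes. Ndufa4l2 stood at 338 and 356 CPM in Krt8-led cells against 0.743 and 0.685 CPM in neurons, from 50 UMIs (log2 fold change 8.89). Its partner Ndufa4 did not pass (368 and 549 CPM in Krt8-led cells against 476 and 613 CPM in neurons, -0.27, adjusted p = 0.122).

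Complex II was higher for 4 of 4 subunits, with Sdhb at 189.9 and 236 CPM in Krt8-led cells against 149 and 149.9 CPM in neurons (0.50), Sdhc at 0.51, Sdha at 0.46 and Sdhd at 0.36 (adjusted p = 0.0277). Sdha, Sdhc and Sdhd did not pass in DESeq2 (adjusted p 0.0722 to 0.240). In complex I, 5 were higher, among them Ndufb11 (0.74) and Ndufa6 (0.58), and 4 lower, among them Ndufs5 (-0.38), against 13 and 0 without TMM. In complex III, 2 were higher, among them Uqcrfs1 (0.43), and 1 was lower, Uqcrq (-0.49).

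In complex IV, 4 were higher and 2 lower (5 and 0 without TMM). Cox7a2l, which links complexes III and IV in supercomplexes, stood at 353 and 403 CPM in Krt8-led cells against 187 and 206 CPM in neurons (0.94 ± 0.120, adjusted p = 3.85e-05), without overlap. Cox6b2 had 8.21 and 2.28 CPM against 0.590 and 0.385 CPM (3.36), and Cox7a1 5.48 and 3.14 CPM against 1.75 and 1.37 CPM (1.46 ± 0.449, adjusted p = 0.0176, lost in DESeq2 at 0.166, range over the alternatives 0.00528 to 0.166). Cox8a was higher (0.36, lost in DESeq2 and with no filter on low counts), Cox6c (-0.41) and Cox5a (-0.38) were lower, and Cox4i1 did not pass (0.15, adjusted p = 0.377).

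In complex V, 3 were higher and 4 lower (3 and 2 without TMM), and the rotor genes parted again. Atp5g2 had 573 and 581 CPM in Krt8-led cells against 376 and 396 CPM in neurons (0.58, adjusted p = 0.00286), and Atp5g1 163 and 225 CPM against 295 and 382 CPM (-0.81, adjusted p = 0.000134). Neither gene overlapped between the gates. Atp5d, the delta subunit, was higher (0.60), and Atp5md (-0.51) and Atp5o (-0.42) were lower. Cox6c, Cox5a, Ndufs5 and Atp5o did not pass without TMM or in DESeq2.

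Of the other lists, 6 of 13 tricarboxylic acid cycle enzymes were higher and 0 lower (9 and 0 without TMM), with Suclg2 at 4.25 and Idh3g at 1.11. Of the mitochondrially encoded subunits 1 was higher, mt-Co1 (0.69), and 6 lower, such as mt-Nd4l (-1.05). Of the 7 hypoxia markers tested 3 were higher, the prolyl hydroxylase Egln3 (4.05), Ddit4 (2.53) and Ankrd37 (1.70), and Bnip3 was lower (-1.67). By library totals Egln3 had 9.08 and 5.03 CPM in Krt8-led cells and 0.320 and 0.481 CPM in i4F-Nes neurons. In i4F-Nes radial glia it had 52.7 and 52.9 CPM. Of the same list, 0 of 2 tested were higher and 1 lower in mural against endothelial cells. In neurons against radial glia 2 of 7 were higher and 4 lower. Of 20 glycolysis genes 6 were higher, such as Aldoa (1.68), and 7 lower, such as Pfkp (-2.35).

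**Figure D4:**
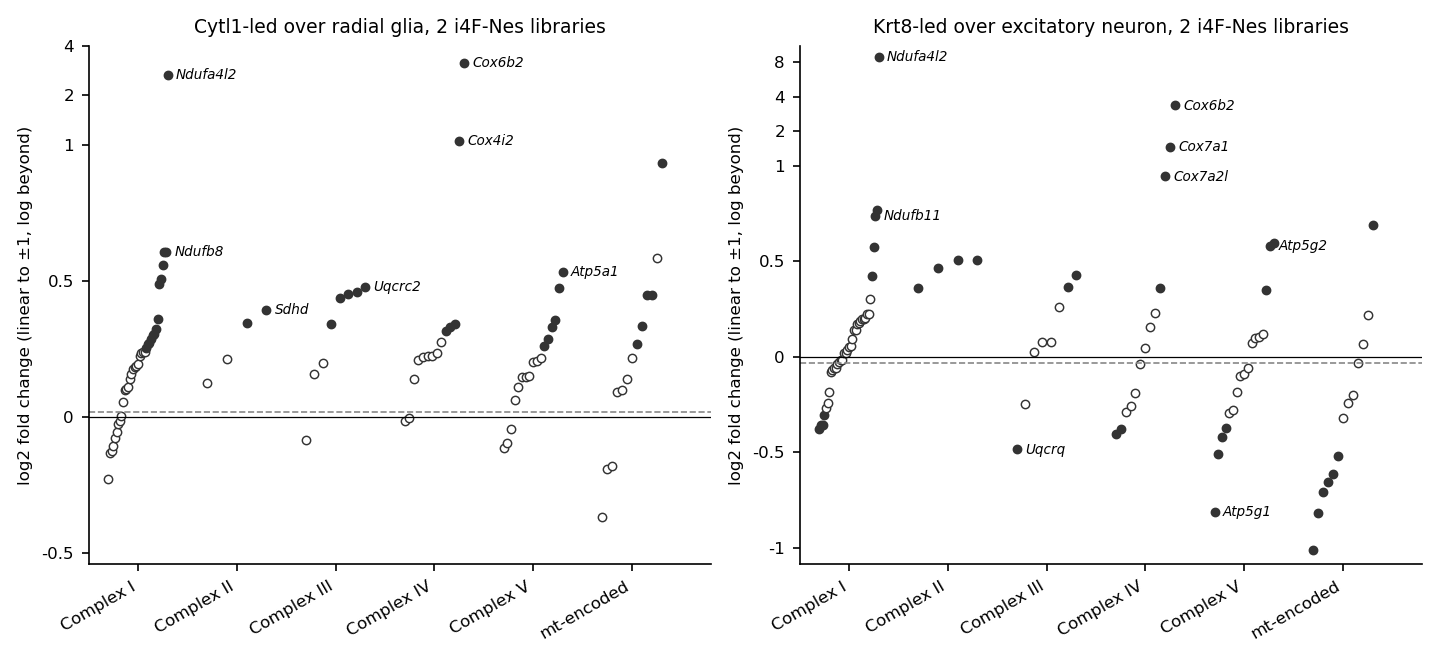
Log2 fold changes of Cytl1-led cells over radial glia and of Krt8-led cells over excitatory neurons, by complex and for the mitochondrially encoded subunits (linear to ±1 and logarithmic beyond). Filled points passed at an adjusted p of 0.05 and the dashed line is the median of all genes tested. Ndufa4l2 reaches 8.89 in Krt8-led cells and Cox6b2 3.17 in Cytl1-led cells, while most other points lie within 1 unit of 0.

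The comparison of the study, i4F-Nes against CTR, was first made over all kept cells. In edgeR's test 2.18% of 18556 genes were higher in i4F-Nes and 0% lower (2328 genes at an unadjusted p under 0.05). Of the 80 oxidative phosphorylation genes 2 passed, Ndufa4l2 and Cox6b2. Ndufa4l2 stood at 18.1 and 22.6 CPM in i4F-Nes against 2.64 and 2.41 CPM in CTR (3.01 ± 0.211, SE, n = 2 per group, adjusted p = 0.00992). Cox6b2 stood at 12.3 and 10.0 CPM in i4F-Nes against 1.52 and 1.11 CPM in CTR (3.08 ± 0.268, adjusted p = 0.0142). In both genes the i4F-Nes libraries lay far above the CTR libraries.

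These calls were lost when Cytl1-led and Krt8-led cells were left out. Both gates hold i4F-Nes cells alone, and together most i4F-Nes UMIs of both genes. Leaving them out therefore had to lower both folds, and the cause was not tested. The Krt8-led marker list summed to 502 and 254 CPM over all i4F-Nes cells against 9.23 and 6.31 CPM in CTR, and the Cytl1-led list to 393 and 375 CPM against 8.08 and 6.64 CPM. Without the cells of these gates, 0 genes passed, Ndufa4l2 differed by 1.37 (adjusted p = 0.381, range over the alternatives 4.15e-36 to 0.381) and Cox6b2 by 1.15 (adjusted p = 0.699, range 6.47e-25 to 0.699). Mural markers were lowest in i4F-Nes replicate 1, at 3.32 and 36.2 CPM in i4F-Nes and 26.3 and 19.98 CPM in CTR. In such sums, more cells of a type and more RNA per cell cannot be told apart.

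The other 78 genes did not pass. Cox4i2 stood at 2.58 and 3.25 CPM in i4F-Nes against 1.36 and 1.04 CPM in CTR (1.28 ± 0.297, adjusted p = 0.133) and passed in DESeq2 (adjusted p = 0.0109, range over the alternatives 0.0109 to 1.00). The ubiquitous partners Ndufa4 (465 and 589.6 CPM in i4F-Nes against 550.1 and 635 CPM in CTR, -0.17, adjusted p = 0.820), Cox6b1 (345 and 461 CPM against 436 and 474 CPM, -0.17, adjusted p = 0.820) and Cox4i1 (718 and 713 CPM against 691 and 779 CPM, -0.04, adjusted p = 0.956) had overlapping groups. The most negative were Atp5md (218 and 279 CPM against 336 and 295 CPM, -0.35 ± 0.168, adjusted p = 0.523), Atp5k (-0.32), Ndufa3 (-0.29), Cox5a (-0.24 ± 0.134, adjusted p = 0.608) and Atp5l (-0.22).

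Of the 80 folds 73 were negative, against 53.6% over all genes, and 50 were negative without TMM, against 38.8%. Their median was -0.11 against -0.02 over all genes, -0.025 against 0.066 without TMM, and 0.02 without i4F-Nes replicate 1. The groups did not overlap for 5 of the 80 genes with i4F-Nes above and 4 with i4F-Nes below, against 28.8% and 9.5% of all genes. The share of UMIs in the 84 genes was 1.83% and 2.10% in i4F-Nes against 1.97% and 2.03% in CTR, a difference of -0.0332 points (exact permutation test p = 1, where 2 against 2 libraries cannot go below 0.333). The CTR libraries lay between the i4F-Nes libraries, and the lowest share was that of i4F-Nes replicate 1. No gene of the pathway lists passed.

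Within radial glia 0% of 13280 genes passed by edgeR (64 by DESeq2, and 770 by the unadjusted p), and 0 of 79 oxidative phosphorylation genes (1 unadjusted, 0 in DESeq2). Cox6b2 had 6.25 and 10.6 CPM in i4F-Nes against 2.83 and 4.27 CPM in CTR (1.26 ± 0.380, adjusted p = 0.606), and Cox4i2 had 6.82 and 6.19 CPM in i4F-Nes against 3.93 and 5.43 CPM in CTR (0.51, adjusted p = 0.945). Cox5a had 432 and 466 CPM against 540.0 and 553 CPM (-0.28, adjusted p = 0.934). The groups of these genes did not overlap, as for 21.9% of all genes higher and 12.2% lower in this gate, where 3 and 14 of the 79 did not. Ndufa4l2, below the filter, had 27 and 6 UMIs in i4F-Nes and 1 and 0 in CTR. No ratio is given for it, since most of these UMIs came from i4F-Nes replicate 1. The median of the 79 was -0.14 against 0.00085 over all genes, and -0.00089 without i4F-Nes replicate 1.

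Within intermediate progenitors 0.00789% of 12676 genes passed (1 gene, 332 unadjusted), and 0 of 79 oxidative phosphorylation genes in edgeR or DESeq2 (1 unadjusted). Ndufa4l2 stood at 5.39 and 7.63 CPM in i4F-Nes against 1.28 and 0.551 CPM in CTR (log2 fold change 2.63). Its groups did not overlap, as for 14.6% of all genes with i4F-Nes above. Cox6b2 had 2.65 and 5.65 CPM against 2.56 and 2.39 CPM (0.63, adjusted p = 1.00). Within excitatory neurons 0% of 15409 genes passed (240 unadjusted, 13 in DESeq2), and 0 of 79 (1 unadjusted, 0 in DESeq2). Ndufa4l2 had 0.704 and 0.645 CPM in i4F-Nes against 0.327 and 0.135 CPM in CTR there (1.54), from 50 against 17 UMIs. In both gates Ndufa4l2 passed the filter on low counts through the i4F-Nes libraries alone, so no p is given for it. The summed Krt8-led markers were higher in each of these i4F-Nes gates too, at 16.7 and 44.0 CPM against 2.29 and 2.08 CPM in radial glia, 44.4 and 57.9 CPM against 18.1 and 13.4 CPM in intermediate progenitors, and 15.7 and 22.7 CPM against 1.04 and 1.20 CPM in neurons. The summed Cytl1-led markers were higher as well, at 29.2 and 97.7 CPM in i4F-Nes against 6.42 and 5.10 CPM in CTR in radial glia, 31.4 and 111.2 CPM against 8.81 and 6.60 CPM in intermediate progenitors, and 14.1 and 16.4 CPM against 8.14 and 6.34 CPM in neurons. The part of these cells or their RNA in the Ndufa4l2 and Cox6b2 levels was not tested. In intermediate progenitors the groups did not overlap for 2 of the 79 genes with i4F-Nes above and 5 below, against 14.6% and 9.67% of all genes. In excitatory neurons these were 1 and 9, against 17.6% and 7.56%.

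Of the 79 folds 70 were negative in radial glia, 66 in intermediate progenitors and 76 in excitatory neurons, against 49.9%, 51.2% and 50.7% of all genes. Without TMM they were 68, 66 and 72, against 45.6%, 49.4% and 42%. Without i4F-Nes replicate 1 the medians of these genes were -0.00089, 0.12 and 0.049. The signs were not tested. The share of UMIs in the 84 genes differed between i4F-Nes and CTR by -0.176 points in radial glia (exact permutation p = 0.667), -0.0716 in intermediate progenitors (exact p = 1), -0.0641 in newborn neurons (exact p = 1) and -0.0928 in excitatory neurons (exact p = 0.667). Whether the response differs between excitatory neurons and radial glia was tested as an interaction in edgeR. Of 15751 genes 0 passed (1006 unadjusted), and 0 of the 80 oxidative phosphorylation genes did (1 unadjusted, Ndufa4l2).

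**Figure D5:**
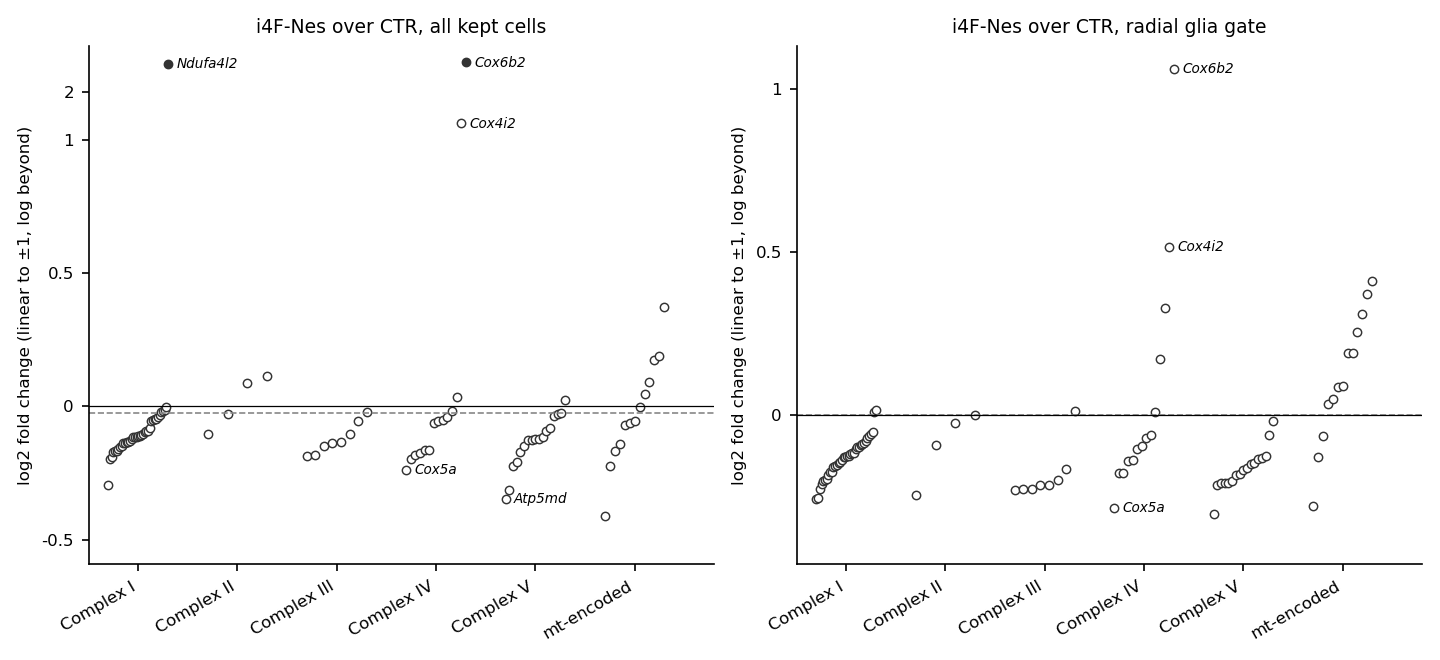
Log2 fold change of i4F-Nes over CTR for each oxidative phosphorylation gene over all kept cells (left) and within radial glia (right), by complex and for the mitochondrially encoded subunits (linear to ±1 and logarithmic beyond). Filled points passed at an adjusted p of 0.05, open points did not, and the dashed line is the median of all genes tested. Ndufa4l2 (3.01) and Cox6b2 (3.08) are the filled points over all cells, where 73 of 80 genes lie below 0 (50 without TMM), and no point is filled in radial glia.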

How the data were processed

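Single-cell RNA was measured in 4 libraries. The deposited matrices hold raw UMI counts per gene and cell, made by the authors with cellranger 7.0.1, per the file headers, on mm10, per the submitters' processing notes. Cells with at least 1000 UMIs, at least 500 genes and at most 10% mitochondrial UMIs were kept, and Scrublet doublets (0.8% per 1000 barcodes) were removed (scanpy 1.11.5). Cells were gated on markers, and counts were summed per library and gate. The sums were tested with edgeR 4.0.16 (TMM, quasi-likelihood F-test, Benjamini-Hochberg over all genes, threshold 0.05), on R 4.3.3 with limma 3.58.1. Comparisons between gates kept the library as a block. Alternatives were DESeq2 1.42.0, other scalings and filters, doublets kept, stricter gates, a 5% mitochondrial limit, a replicate block and leaving out each library. The scaling by library totals and the lower cell minimum for vessel cells were added after seeing the data. The edgeR script was tested on simulated data. The members, gene lists, gates and named genes (core subunits, isoforms with their partners and, per comparison, up to 10 genes past the threshold in each direction and the 5 largest and 5 smallest folds above 10 CPM) were chosen with earlier results of these data known. Some genes that this rule names are not reported here.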

Additional observations from a re-analysis of the deposited data

How the results depend on the processing

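Leaving out 1 library at a time moved the count of called oxidative phosphorylation genes between 0 and 1 in radial glia, between 0 and 1 in intermediate progenitors and between 2 and 4 in mural against endothelial cells. It moved the i4F-Nes minus CTR share of UMIs between -0.168 and 0.101 points over all cells, -0.301 and 0.157 in intermediate progenitors, -0.216 and 0.0882 in newborn neurons and -0.231 and 0.0450 in excitatory neurons. For single genes, Cox4i1 over all cells ranged from -0.12 to 0.070 and Cox6b1 from -0.38 to 0.015, and Cox4i1 was 0.052 without TMM. The count was 0 without Cytl1-led and Krt8-led cells. With no filter on low counts it was 2 in radial glia and 1 in intermediate progenitors, and with the doublets kept it was 10 in mural against endothelial cells. The shares of all genes called under these settings are not given here. These counts are therefore not read as a result about oxidative phosphorylation genes. For Cytl1-led cells it was 21 without TMM and 11 in DESeq2, and for Krt8-led cells 12 in DESeq2. The causes were not tested. Of 80 other values of summary results 72 stayed, and of 660 of single genes 604 did.

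With the replicate number as a replicate block, the counts of called oxidative phosphorylation genes were 2 over all cells, 0 in radial glia, 1 in intermediate progenitors and 0 in excitatory neurons, and those of all genes 1284, 187, 226 and 560, against 405, 0, 1 and 0 without it. No label pairs the numbers; deviations of same-numbered libraries correlated at r = 0.49 over 14072 genes. DESeq2 called 1160, 64, 16 and 13 genes, and leaving out 1 library gave 537 to 779 over all cells, 60 to 229 in radial glia, 2 to 49 in intermediate progenitors and 1 to 275 in excitatory neurons (275 without CTR replicate 2). It called 3248 genes against 6204 for Cytl1-led cells and 4458 against 7185 for Krt8-led cells. With 1 pair of libraries left, no test was possible for these on leaving out 1 library. Genes below about 1 CPM in a gate rest on few UMIs, where a difference may not be detectable at this depth.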
